A study of Mus musculus with 18 samples.

Results

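The genes described here are 9 genes known from phagocytic, lipid-associated macrophages: Trem2, Tyrobp, Gpnmb, Cd68, Apoe, Mpeg1, Itgax, Clec7a and Atp6v0d2. They were chosen by name, with earlier results of these data known. All 9 were found among the 48709 genes listed for each library, of which 31665 have an exon length. Whole quadriceps of 18 mice in 6 groups was sequenced in bulk, with 1 RNA library for each mouse. No other listed gene overlaps any of the 9 in the annotation. In a mouse model of LAMA2-related congenital muscular dystrophy, called dyW, the series compared diseased with healthy muscle, and a second cohort compared the galectin-3 inhibitor TD139 with the vehicle PBS.

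The healthy wild type (WT) mice were C57BL/6J, and the diseased mice were B6.129S1(Cg)-Lama2tm1Eeng/J, a line with a targeted allele of Lama2, the laminin alpha 2 gene. The untreated cohort had 3 WT and 4 dyW mice with an age label of 5 weeks. The treatment cohort had 3 WT and 3 dyW mice given PBS, and 2 WT and 3 dyW mice given TD139, all with an age label of 3 weeks. The protocol given for every library places collection at 5 weeks, so what the label of 3 weeks refers to is not known. PBS and TD139 are known from the library names only, and the dose, route and length of treatment are not given in the sources used here. Every group held both sexes. The labels describe the mutant colony as hemizygotes and give no zygosity for single animals. Replicates were separate mice. Cohort and age label cannot be told apart.

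TREM2 is a receptor on macrophages and microglia that binds lipids, lipoproteins and debris of dying cells. It has no signalling tail of its own and signals through the adaptor TYROBP (DAP12). Macrophages that have taken up much lipid or many dead cells, in fat, atherosclerotic plaque, brain and injured muscle, are known to express TREM2 together with lysosomal genes such as Gpnmb and Cd68 and the lipid carrier Apoe. Dystrophic muscle goes through repeated rounds of fibre death, and macrophages clear the remains.

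Promoter sequence is shown for 3 of the 9 genes because their expression is compared together below and because these 3 held a match to a searched motif. Each is the run of 250 bases just before the transcription start, from RefSeq (GRCm38.p6, the assembly also called mm10), printed 5′ to 3′ on the strand of the gene. Capitals mark the matches. They are TGANTCA and, in Trem2, CTTCCTC, which is GAGGAAG (a PU.1 type motif) on the opposite strand. TGANTCA is a loose form of the AP-1 motif, N being any base, and reads as TGANTCA on either strand. The matches read TGAGTCA in Cd68 and Itgax and TGAATCA in Trem2.
Trem2, chr17:48346151-48346400, plus strand: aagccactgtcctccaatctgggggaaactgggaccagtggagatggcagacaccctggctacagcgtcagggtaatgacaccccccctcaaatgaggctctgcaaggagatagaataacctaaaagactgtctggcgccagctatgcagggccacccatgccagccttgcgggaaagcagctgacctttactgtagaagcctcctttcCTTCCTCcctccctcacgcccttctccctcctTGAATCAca
Cd68, chr11:69666171-69666420, minus strand: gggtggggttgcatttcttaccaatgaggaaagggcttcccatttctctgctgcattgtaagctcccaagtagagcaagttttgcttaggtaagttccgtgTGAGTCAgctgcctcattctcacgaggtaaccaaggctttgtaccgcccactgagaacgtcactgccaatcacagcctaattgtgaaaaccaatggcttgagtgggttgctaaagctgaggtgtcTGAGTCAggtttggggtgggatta
Itgax, chr7:128129300-128129549, plus strand: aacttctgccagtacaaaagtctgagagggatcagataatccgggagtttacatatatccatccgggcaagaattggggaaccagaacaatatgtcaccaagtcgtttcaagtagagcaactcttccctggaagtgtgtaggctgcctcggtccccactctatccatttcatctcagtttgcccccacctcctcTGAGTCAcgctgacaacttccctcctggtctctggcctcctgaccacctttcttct

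The motif TGANTCA began 9 bases before the start in Trem2, 149 and 24 bases before it in Cd68, and 56 bases before it in Itgax. GAGGAAG lay 41 bases before the start of Trem2, on the opposite strand. Promoters of 7 of the 9 genes were in the RefSeq table, and Tyrobp and Atp6v0d2 were not matched. Among all 32851 promoter windows of the same length, searched on both strands, TGANTCA was present in 6.749% and GAGGAAG in 10.61%. The other searched motifs were CACGTG (an E-box, in 6.021% of all windows), TCACGTGA (in 0.7854%, and always also a CACGTG) and TCATGTGA (in 0.8462%), the last 2 being motifs of the MiT/TFE factors that regulate lysosomal genes. None of these 3 strings was present in the windows of the 7 genes. A match in these letters is a description of the sequence and was not tested for binding.

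Libraries held between 15.8 and 45.2 M exon reads each, M standing for mega. The shallowest library, dyW PBS replicate 1 with 15.8 M, had the highest RPKM of its group for all 9 genes, and the genotype effects of the PBS cohort are also given without it. WT PBS replicate 1 stood apart in Schwann cell markers, with a summed RPKM of 851.8 over 8 genes against 23.53 to 170.1 in the other 17 libraries. Lama2, the targeted gene, was at 2.18 to 5.02 RPKM in the 8 WT libraries and at 0.545 to 1.10 RPKM in the 10 dyW libraries, with no overlap. RPKM is the number of exon reads per kilobase of exon per mega of reads in the library.

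Across both cohorts and all treatments, each of the 9 genes was higher by RPKM in every dyW library than in every WT library. The share of all genes separated in this way over the 18 libraries was not counted. Within single genotype comparisons it was 51.3% untreated, 23.2% under PBS and 47.2% under TD139. In untreated muscle all 9 rose, by fitted log2 fold changes of 2.17 to 5.16. In the PBS groups all 9 rose again, by 1.41 to 3.88. TD139 moved none of the 9 past the test in either genotype.

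**Figure D1:**
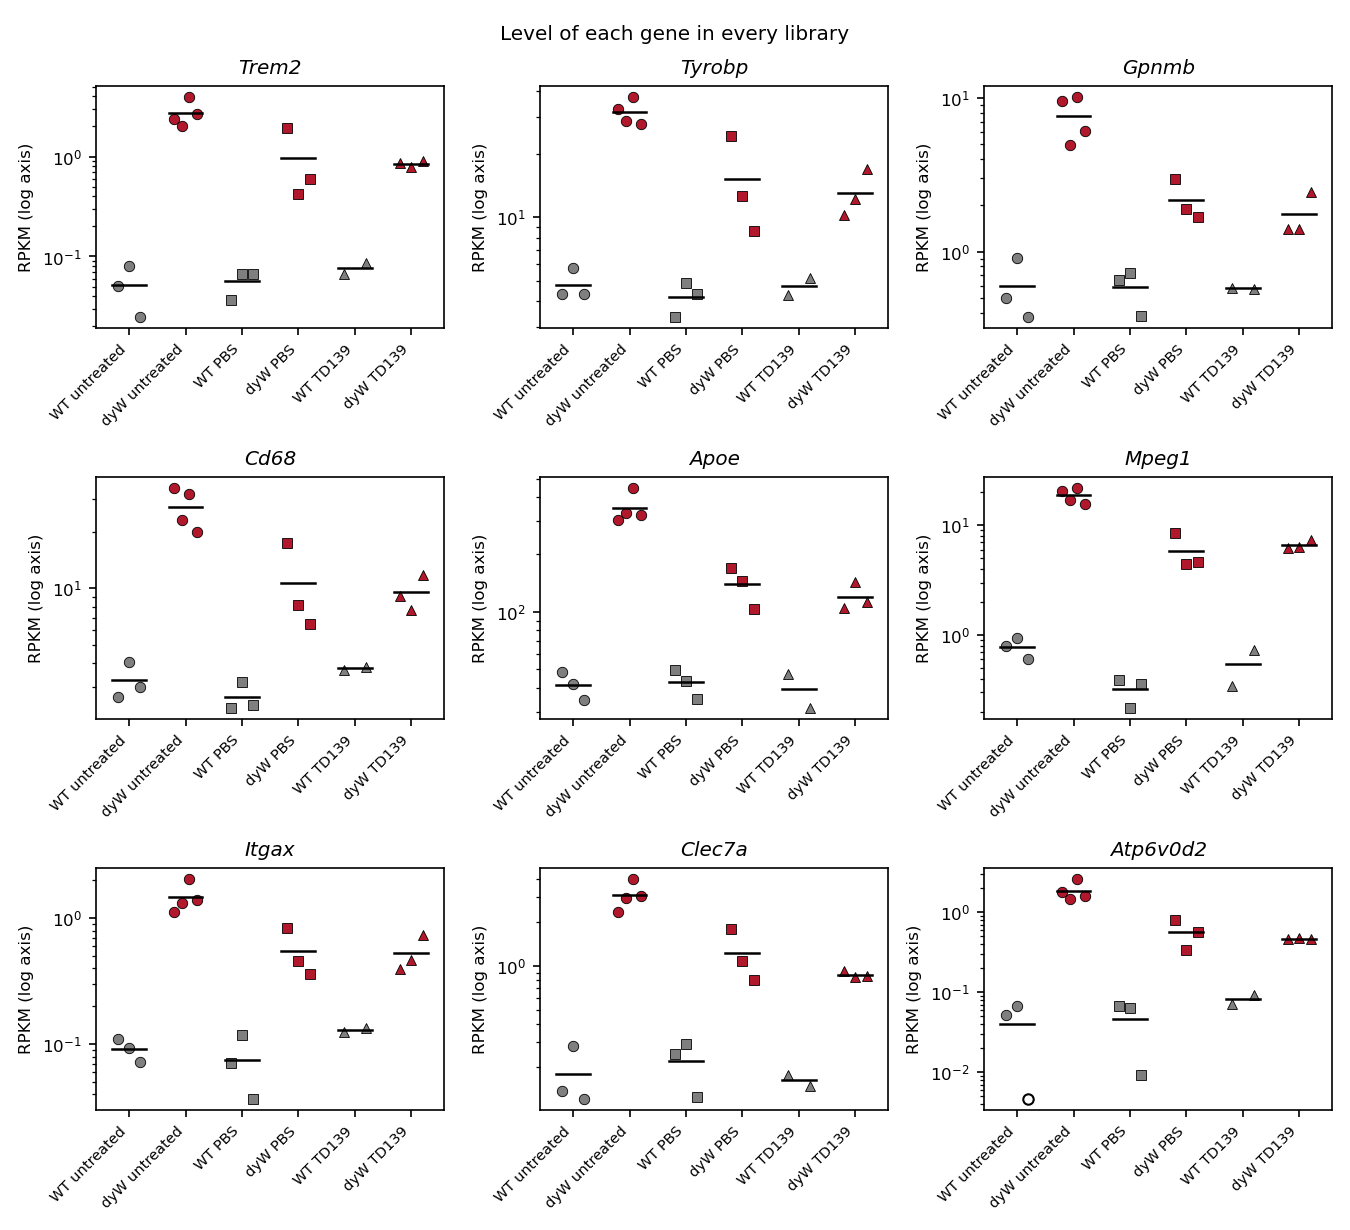
RPKM (log axis) of each of the 9 genes in every library, by group; points are mice, bars are group means, grey is WT and red is dyW. The open circle for Atp6v0d2 in WT untreated stands for a library with 0 reads and is drawn at a placeholder height. In every panel all 10 red points lie above all 8 grey points, and the leftmost dyW PBS point, replicate 1, is the highest of its group.

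Trem2, the lipid-sensing receptor (ENSMUSG00000023992, mm10 chr17:48346401-48354147, plus strand), stood at 0.0511, 0.0798 and 0.0250 RPKM in the 3 untreated WT mice and at 2.36, 2.04, 3.94 and 2.68 RPKM in the 4 untreated dyW mice. The WT values rest on 5 to 15 reads per library and the dyW values on 448 to 793 reads. In WT muscle the transcript was thus close to the limit of detection, and the groups were far apart. The fit gave a log2 fold change of 5.16 (SE 0.37, 95% interval 4.31 to 6.01, edgeR adjusted p = 0.000116), a 35.7-fold difference. In the treatment cohort, Trem2 was at 0.0370, 0.0664 and 0.0668 RPKM in WT PBS and at 1.92, 0.419 and 0.590 RPKM in dyW PBS. One dyW PBS mouse, replicate 1, was 4.573 times the lowest of its group, the widest ratio of the 9 genes in that group. Under PBS the genotypes differed by a log2 fold change of 3.69 (SE 0.51, edgeR adjusted p = 0.00586), and by 2.88 without that mouse (SE 0.37, edgeR adjusted p = 0.00857).

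Tyrobp, the adaptor through which TREM2 and several other myeloid receptors signal (ENSMUSG00000030579, mm10 chr7:30413760-30417585, plus strand), was far more abundant than Trem2 on the RPKM scale. It stood at 4.30, 5.72 and 4.34 RPKM in untreated WT mice and at 33.0, 28.7, 37.5 and 27.8 RPKM in untreated dyW mice. Its log2 fold change of 2.17 (SE 0.17, 95% interval 1.77 to 2.56, edgeR adjusted p = 0.000146) was the smallest of the 9, and its interval lay wholly below that of Trem2. Under PBS the levels were 3.37, 4.86 and 4.31 RPKM in WT and 24.5, 12.6 and 8.60 RPKM in dyW. The difference was 1.51 (SE 0.32, edgeR adjusted p = 0.0321), and the call was lost in 6 of 15 alternative settings, among them without dyW PBS replicate 1 (log2 fold change 1.09, edgeR adjusted p = 0.135).

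Apoe, which encodes the lipoprotein that carries cholesterol out of macrophages and is also a ligand of TREM2 (ENSMUSG00000002985, mm10 chr7:19696109-19699188, minus strand), had the highest level of the 9 genes in each of the 6 groups. It stood at 48.3, 42.0 and 34.4 RPKM in untreated WT mice and at 304, 330, 446 and 321 RPKM in untreated dyW mice. The lowest dyW value was several times the highest WT value, and the log2 fold change was 2.52 (SE 0.15, edgeR adjusted p = 0.000101). In the treatment cohort the WT PBS mice were at 49.8, 43.3 and 35.0 RPKM and the dyW PBS mice at 171, 145 and 104 RPKM. The WT levels of the 2 cohorts overlapped, while the dyW levels did not, and the dyW levels were apart in this way for all 9 genes. Under PBS the log2 fold change of Apoe was 1.41 (SE 0.21, edgeR adjusted p = 0.00779).

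Clec7a encodes Dectin-1, a receptor for fungal beta-glucan that is also a marker of activated microglia and macrophages (ENSMUSG00000079293, mm10 chr6:129461591-129472779, minus strand). Its annotated biotype in the reference is polymorphic pseudogene. Clec7a was at 0.138, 0.279 and 0.122 RPKM in untreated WT mice and at 2.36, 2.92, 3.97 and 3.01 RPKM in untreated dyW mice (log2 fold change 3.51, SE 0.31, edgeR adjusted p = 0.000185). Under PBS it was at 0.248, 0.291 and 0.125 RPKM in WT and at 1.80, 1.08 and 0.801 RPKM in dyW (2.14, SE 0.35, edgeR adjusted p = 0.0102). Itgax encodes CD11c, the integrin alpha chain found on dendritic cells and on many lipid-laden macrophages (ENSMUSG00000030789, mm10 chr7:128129547-128150657, plus strand). Itgax was at 0.111, 0.0932 and 0.0721 RPKM in untreated WT mice and at 1.12, 1.31, 2.05 and 1.41 RPKM in untreated dyW mice (3.44, SE 0.24, edgeR adjusted p = 0.000116). Under PBS it was at 0.0707, 0.119 and 0.0371 RPKM in WT and at 0.843, 0.457 and 0.363 RPKM in dyW. That difference was 2.51 (SE 0.43, edgeR adjusted p = 0.0131), and the call was lost without dyW PBS replicate 1 (2.18, edgeR adjusted p = 0.0558) and without WT PBS replicate 3 (2.22, edgeR adjusted p = 0.0551). For both receptors the genotypes did not overlap in either cohort. The untreated and PBS values in WT rest on 13 to 35 reads per library for Clec7a and 7 to 26 for Itgax.

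Mpeg1 encodes perforin-2, a pore-forming protein of macrophage phagosomes (ENSMUSG00000046805, mm10 chr19:12460779-12465284, plus strand). It was at 0.797, 0.947 and 0.599 RPKM in untreated WT mice and at 20.3, 17.04, 21.9 and 15.5 RPKM in untreated dyW mice. With a log2 fold change of 4.03 (SE 0.18, edgeR adjusted p = 4.75e-05) it had the smallest adjusted p of the 9. WT PBS mice were at 0.392, 0.217 and 0.358 RPKM and dyW PBS mice at 8.57, 4.42 and 4.67 RPKM. The log2 fold change there, 3.88 (SE 0.29, edgeR adjusted p = 0.000319), was nearly that of the untreated cohort. Both genotypes were lower under PBS than untreated, with ratios of mean RPKM, untreated over PBS, of 3.177 in dyW and 2.425 in WT.

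Cd68, a glycoprotein of late endosomes and lysosomes used as a macrophage marker (ENSMUSG00000018774, mm10 chr11:69664213-69666153, minus strand), stood at 2.66, 4.08 and 2.99 RPKM in untreated WT mice and at 34.2, 23.04, 31.8 and 19.9 RPKM in untreated dyW mice. It rose by a log2 fold change of 2.51 (SE 0.25, edgeR adjusted p = 0.000276). Under PBS the levels were 2.33, 3.19 and 2.41 RPKM in WT and 17.5, 8.14 and 6.46 RPKM in dyW, a log2 fold change of 1.66 (SE 0.30, edgeR adjusted p = 0.0156). The Cd68 call was lost with only the 2 PBS groups in the fit (1.67, edgeR adjusted p = 0.0549) and without WT PBS replicate 3 (1.64, edgeR adjusted p = 0.0696). The genotypes were apart in both cohorts, with dyW PBS replicate 1 just below the lowest untreated dyW mouse.

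Gpnmb encodes a transmembrane glycoprotein of lysosomes and melanosomes (ENSMUSG00000029816, mm10 chr6:49036546-49070929, plus strand). It was at 0.497, 0.905 and 0.377 RPKM in untreated WT mice and at 9.53, 4.95, 10.2 and 6.06 RPKM in untreated dyW mice, with the dyW mice split between a higher and a lower pair. Gpnmb rose by a log2 fold change of 3.13 (SE 0.35, edgeR adjusted p = 0.000452). Under PBS it was at 0.656, 0.726 and 0.382 RPKM in WT and at 2.96, 1.89 and 1.69 RPKM in dyW (1.58, SE 0.28, edgeR adjusted p = 0.0139). That call was lost without dyW PBS replicate 1 (1.38, edgeR adjusted p = 0.0650) and without WT PBS replicate 3 (1.38, edgeR adjusted p = 0.0596). Melanocyte markers, another source of Gpnmb in skin, summed to at most 0.651 RPKM over 6 genes in any library, and none of the 6 could be tested in the untreated cohort.

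Atp6v0d2 encodes a d subunit of the vacuolar proton pump that acidifies lysosomes, a form known from osteoclasts and macrophages (ENSMUSG00000028238, mm10 chr4:19876841-19922605, minus strand). It stood at 0.0517, 0.0679 and 0 RPKM in untreated WT mice, from 5, 7 and 0 reads. The library with 0 reads allows a level of up to 0.0273 RPKM (3 reads, counting error only). The untreated dyW mice were at 1.82, 1.46, 2.62 and 1.61 RPKM, and the fitted log2 fold change was 5.00 (SE 0.63, edgeR adjusted p = 0.000357). Under PBS the levels were 0.0673, 0.0645 and 0.00936 RPKM in WT, from 7, 8 and 1 reads, and 0.809, 0.341 and 0.568 RPKM in dyW. The log2 fold change there was 3.25 (SE 0.53, edgeR adjusted p = 0.00980). Its widely expressed paralogue Atp6v0d1 ranged from 12.9 to 16.5 RPKM in WT and from 15.6 to 32.9 RPKM in dyW, so in every library most d-subunit transcript per length came from Atp6v0d1.

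All 9 genes passed the test as higher in untreated dyW muscle, where 24.7% of the 14846 genes tested were called higher. Their median log2 fold change was 3.44, against 0.03 over all genes tested. Under PBS all 9 also passed as higher, where 2.40% of 15331 genes were called higher, and their median was 2.14 against -0.03. Because the 9 were chosen with earlier results of these data known, these contrasts with all genes are a description only. Complete separation of the groups by RPKM, seen for all 9 in every genotype comparison, held for 51.3% of all genes in the untreated cohort, 23.2% under PBS and 47.2% under TD139. Without dyW PBS replicate 1 the PBS count was 6 of 9. The 6 were Trem2, Mpeg1 (log2 fold change 3.60, edgeR adjusted p = 0.00103), Atp6v0d2 (3.02, edgeR adjusted p = 0.0402), Clec7a (1.85, edgeR adjusted p = 0.0452), Apoe (1.32, edgeR adjusted p = 0.0354) and Cd68 (1.22, edgeR adjusted p = 0.0492). Without WT PBS replicate 3 it was 5 of 9, and with only the 2 PBS groups in the fit it was 7 of 9. In bulk muscle, more macrophages and more transcript per macrophage cannot be told apart.

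The scale bears on the size of these folds. The fitted values use TMM scaling, which centres most genes near 0, while RPKM does not. Ratios of mean RPKM, dyW over WT untreated, ran from 6.629 for Tyrobp to 53.0 for Trem2, where the fitted folds were 4.49 and 35.7. On log2(RPKM + 0.1) the median of all genes moved to 0.51 in the untreated cohort and to 0.25 under PBS, and 85.5% of the untreated calls were then higher against 49.6% with TMM. Under PBS 97.8% of the calls were then higher against 89.5%. All 9 genes were called higher in both cohorts on either scale. For the genotype effect under TD139 the share of calls that were higher was 72.5% with TMM and 94.0% on log2(RPKM + 0.1), and for the cohort difference it was 30.5% and 61.3%.

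By level, untreated dyW muscle ranked the genes as Apoe, Tyrobp, Cd68, Mpeg1, Gpnmb, Clec7a, Trem2, Atp6v0d2 and Itgax, from a mean of 350 RPKM to 1.47 RPKM. Neighbours overlapped between mice for Tyrobp and Cd68, for Cd68 and Mpeg1, and along the run from Clec7a to Itgax. Apoe lay apart from Tyrobp, Mpeg1 from Gpnmb, and Gpnmb from Clec7a. In untreated WT muscle the order was Apoe, Tyrobp, Cd68, Mpeg1, Gpnmb, Clec7a, Itgax, Trem2 and Atp6v0d2, from 41.6 to 0.0399 RPKM. There Mpeg1 overlapped Gpnmb, Itgax overlapped Trem2, and Trem2 overlapped Atp6v0d2, while the other neighbours lay apart.

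**Figure D2:**
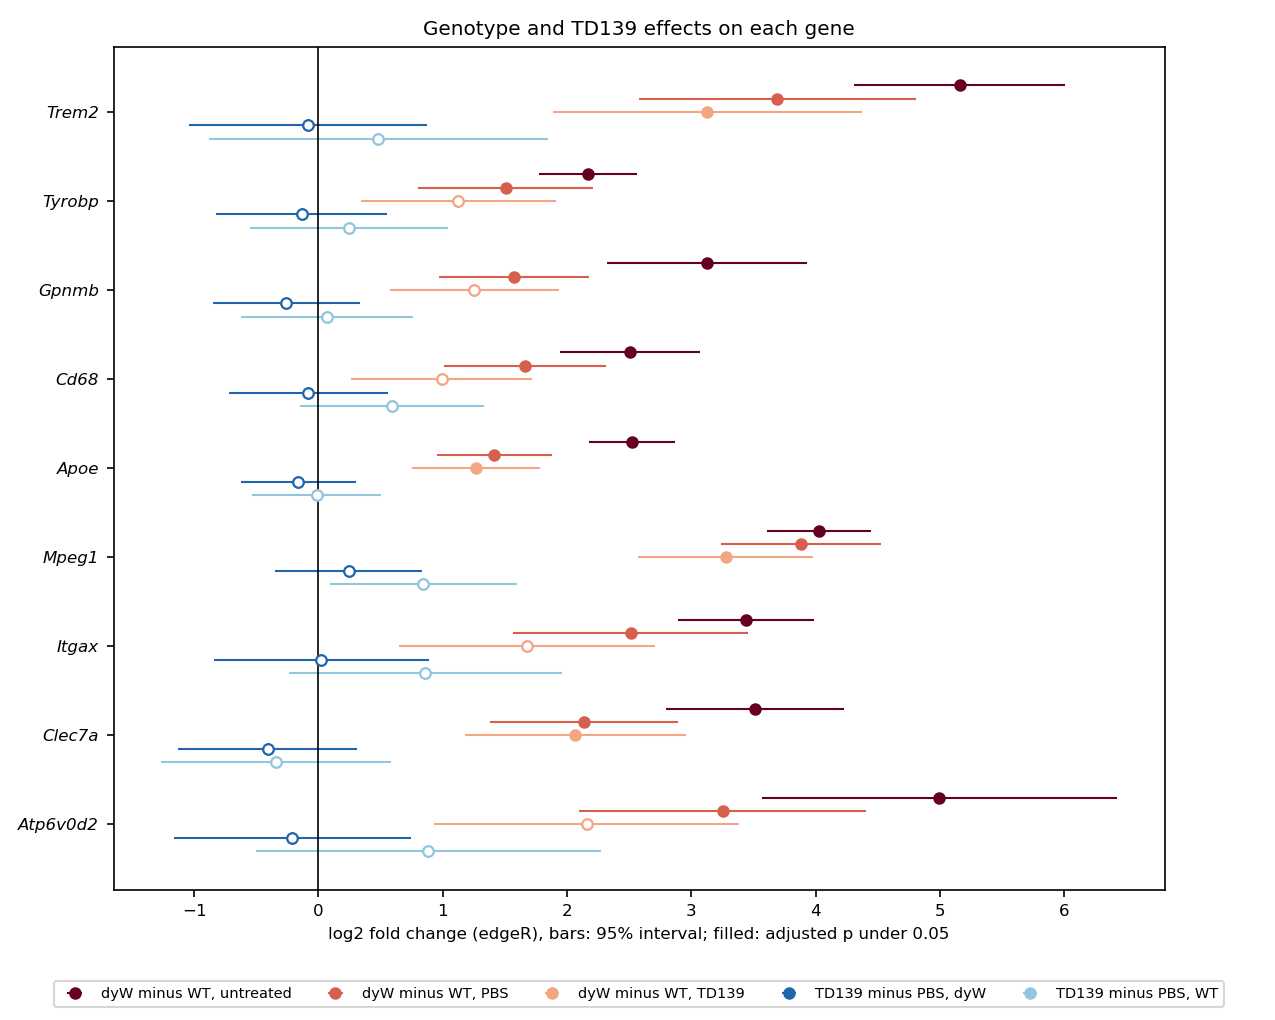
Fitted log2 fold changes (x axis) of the 9 genes in 5 comparisons, with 95% intervals; filled points passed an edgeR adjusted p of 0.05 and open points did not. The genotype effects in reds lie to the right of 0 for every gene, and the TD139 effects in blues are all open.

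TD139 is a small-molecule inhibitor of galectin-3, and the comparison asks whether blocking galectin-3 changes the muscle transcriptome. Trem2 was at 0.869, 0.783 and 0.892 RPKM in the dyW mice given TD139, inside the range of the dyW PBS mice. Tyrobp was at 10.3, 12.2 and 16.9 RPKM, Apoe at 105, 143 and 112 RPKM, and Mpeg1 at 6.19, 6.29 and 7.39 RPKM, all within their dyW PBS ranges. Log2 fold changes of TD139 against PBS in dyW ran from -0.41 for Clec7a (95% interval -1.13 to 0.31) to 0.24 for Mpeg1 (-0.35 to 0.83), and the widest interval was that of Trem2, -0.08 (-1.04 to 0.88). Over the 9 genes the intervals reached from -1.16, for Atp6v0d2, to 0.89, for Itgax.

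None of the 9 passed edgeR's test for TD139 in dyW, where 0% of 15331 genes were called, and none of the 9 had an unadjusted p under 0.05. Over all genes 583 had an unadjusted p under 0.05 with edgeR, and DESeq2 called 4 genes and limma 0, none of them among the 9. The direction rested on 1 library for some genes: without dyW PBS replicate 1 the log2 fold change of Trem2 was 0.73, that of Cd68 was 0.36, that of Tyrobp was 0.28 and that of Atp6v0d2 was 0.03. In the authors' deposited table for TD139 against PBS in dyW, the log2 fold changes of the 9 genes ran from -0.38 for Clec7a to 0.25 for Mpeg1, with FDR-adjusted p-values from 0.904 to 0.982.

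In WT muscle the 2 mice given TD139 were compared with 3 given PBS. None of the 9 passed edgeR's test there, where again 0% of 15331 genes were called and 304 had an unadjusted p under 0.05. DESeq2 called 3 genes and limma 0, none among the 9. Mpeg1, at 0.341 and 0.735 RPKM, was the single gene of the 9 with an unadjusted p under 0.05 (0.0291, log2 fold change 0.84, edgeR adjusted p = 1), and its groups overlapped. The interaction of TD139 with genotype, dyW minus WT, passed edgeR's test for none of the 9, with 0% of all genes called and 294 at an unadjusted p under 0.05 (DESeq2 called 1 gene and limma 0). These differences ran from -1.09 for Atp6v0d2 (95% interval -2.78 to 0.59) to -0.07 for Clec7a (-1.24 to 1.10).

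Under TD139, the dyW and WT mice still lay apart for all 9 genes, and 4 of the 9 passed the test as higher, where 0.757% of all genes were called higher. Those 4 were Mpeg1 (log2 fold change 3.28, SE 0.32, edgeR adjusted p = 0.00577), Trem2 (3.13, SE 0.57, edgeR adjusted p = 0.0324), Apoe (1.27, SE 0.24, edgeR adjusted p = 0.0348) and Clec7a (2.07, SE 0.41, edgeR adjusted p = 0.0440). The other 5 had log2 fold changes from 0.99 for Cd68 to 2.16 for Atp6v0d2, with edgeR adjusted p from 0.0886 to 0.188. The median of the 9 was 1.68, against 0.01 over all genes. DESeq2 called 7 of the 9, and leaving out any 1 of the 5 mice left 1 call. The genotype effects under PBS and under TD139 differ by exactly this interaction, which no gene of the 9 passed.

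Fitted over all 18 libraries, the genotype effect was larger in the untreated than in the PBS cohort for Apoe, by 1.10 on the log2 scale (SE 0.26, 95% interval 0.54 to 1.65, edgeR adjusted p = 0.0462). Apoe was the 1 call among the 9, where 1.72% of 15771 genes were called in either direction, and the call was lost in 10 of 20 alternatives. Gpnmb differed by 1.54 (SE 0.47, edgeR adjusted p = 0.0832) and Clec7a by 1.36 (SE 0.47, edgeR adjusted p = 0.111), neither past the threshold. For Trem2 the difference was 1.45 (SE 0.69, edgeR adjusted p = 0.224), and without dyW PBS replicate 1 it was 2.26 and passed (SE 0.52, edgeR adjusted p = 0.0357). For Mpeg1 the difference was 0.13 (95% interval -0.65 to 0.92, edgeR adjusted p = 0.863). DESeq2 called 3 of the 9 and limma on log2(RPKM + 0.1) called 0. In ratios of mean RPKM, untreated over PBS, dyW muscle ran from 2.08 for Tyrobp to 3.52 for Gpnmb.

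In bulk muscle the level of a macrophage gene does not tell cell number from transcript per cell. As a macrophage reference, 12 genes were used, among them Csf1r, Adgre1, Lyz2 and Ctss. Of these, 11 rose in untreated dyW muscle, with a median log2 fold change of 2.15, and 10 rose under PBS, with a median of 1.89. Ctss, a lysosomal cysteine protease, rose by 3.65 untreated (SE 0.21, edgeR adjusted p = 0.000101) and by 2.68 under PBS (SE 0.24, edgeR adjusted p = 0.000421). Adgre1, which encodes F4/80, rose by 2.52 under PBS (SE 0.32, edgeR adjusted p = 0.00508). Each of the 9 genes was then expressed as its log2 CPM (counts per mega of library reads) minus the mean log2 CPM of the 12, library by library, as a description with no test.

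**Figure D3:**
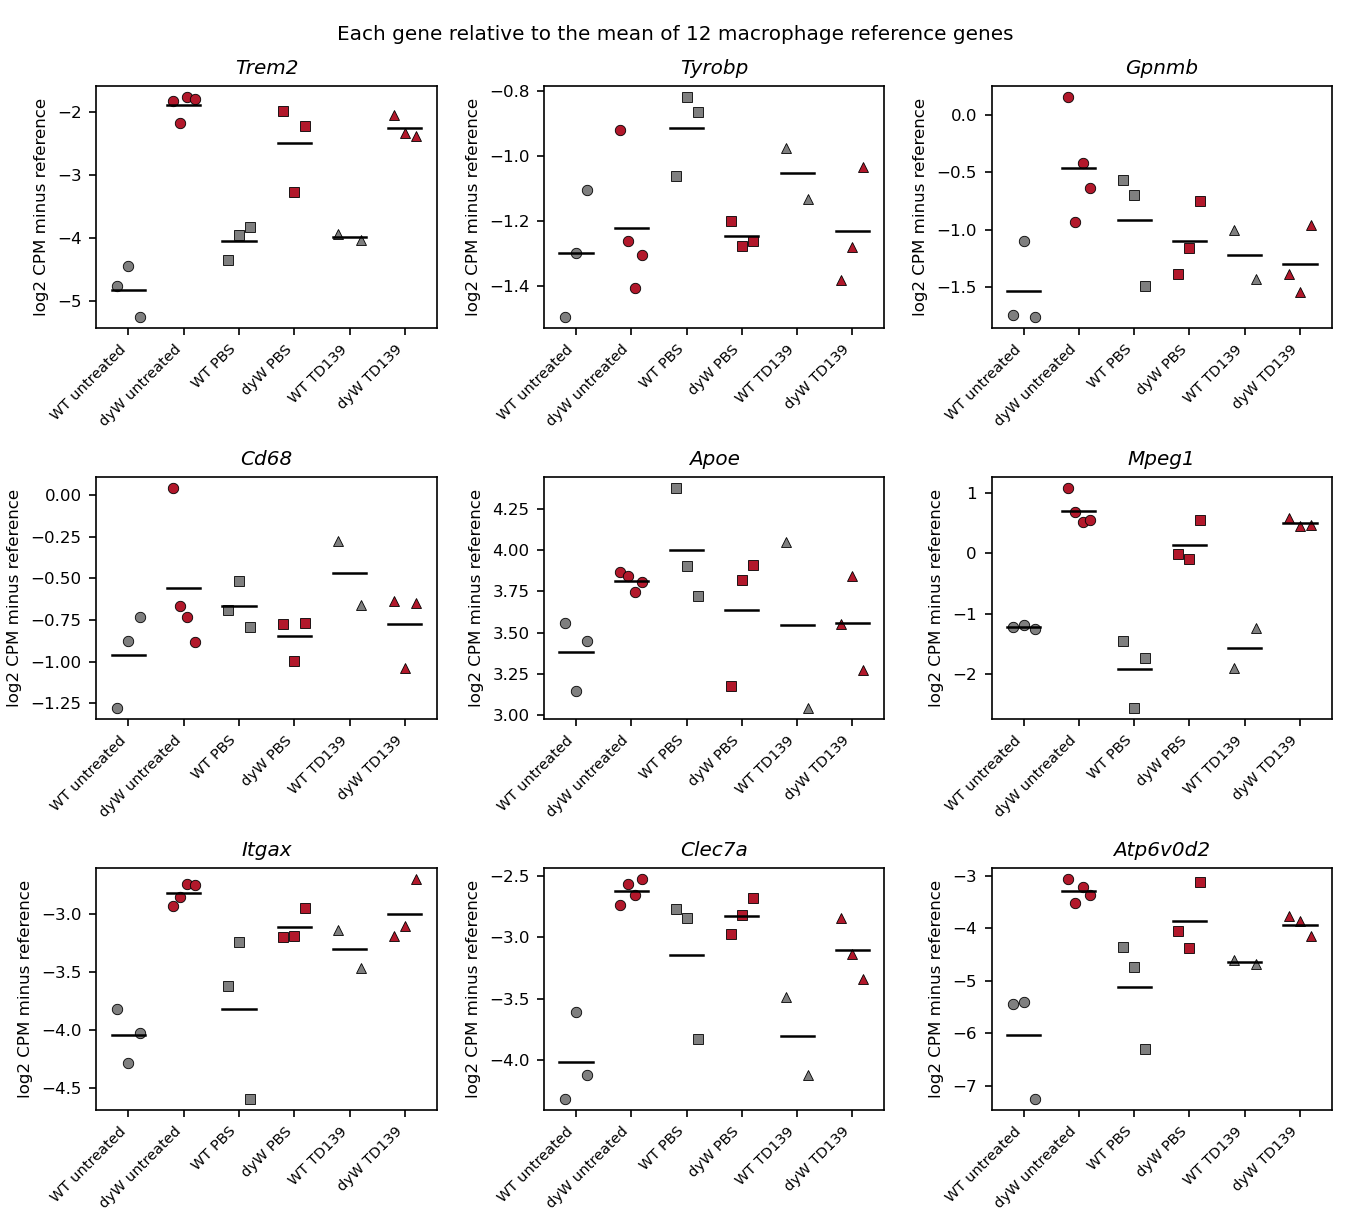
Log2 CPM of each of the 9 genes minus the mean of 12 macrophage reference genes, by library; bars are group means, and each panel has its own y axis. Trem2 and Mpeg1 lie higher in all dyW libraries than in WT of the same cohort. With this reference, Tyrobp and Cd68 overlap in the untreated cohort. The share of all genes separated on this scale was not counted.

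On this scale Trem2 stayed higher in dyW than in WT, by 2.94 untreated, 1.56 under PBS and 1.73 under TD139, with no overlap of genotypes in any of the 3. Mpeg1 did the same, by 1.93, 2.06 and 2.07. How many of all genes were separated by genotype on this scale, in either direction, was not counted. Atp6v0d2 was higher by 2.74 untreated, 1.27 under PBS, where the groups overlapped, and 0.71 under TD139. Clec7a and Itgax were higher by 1.40 and 1.22 untreated and by 0.32 and 0.71 under PBS, where the groups overlapped for Clec7a. Under TD139 they were higher by 0.70 and 0.30, and the groups overlapped for Itgax. Gpnmb was higher by 1.07 untreated and lower by a value within its scatter under PBS (-0.18). Apoe (0.43 untreated, -0.36 under PBS), Cd68 (0.40 and -0.18) and Tyrobp (0.08 and -0.33) had the smallest differences of the 9 in the untreated cohort, and all 3 were below 0 under PBS. Under PBS every dyW library lay below every WT library for Tyrobp. With Csf1r alone as the reference, the PBS values of Tyrobp, Cd68, Apoe and Gpnmb turned positive (0.18, 0.33, 0.15 and 0.34). The untreated values depended on the reference as well. Against Csf1r, Tyrobp, Cd68 and Apoe were higher in untreated dyW by 0.90, 1.22 and 1.25, and against Ptprc by 0.52, 0.84 and 0.87. For these 3 genes the untreated genotypes did not overlap with either single reference.

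**Figure D4:**
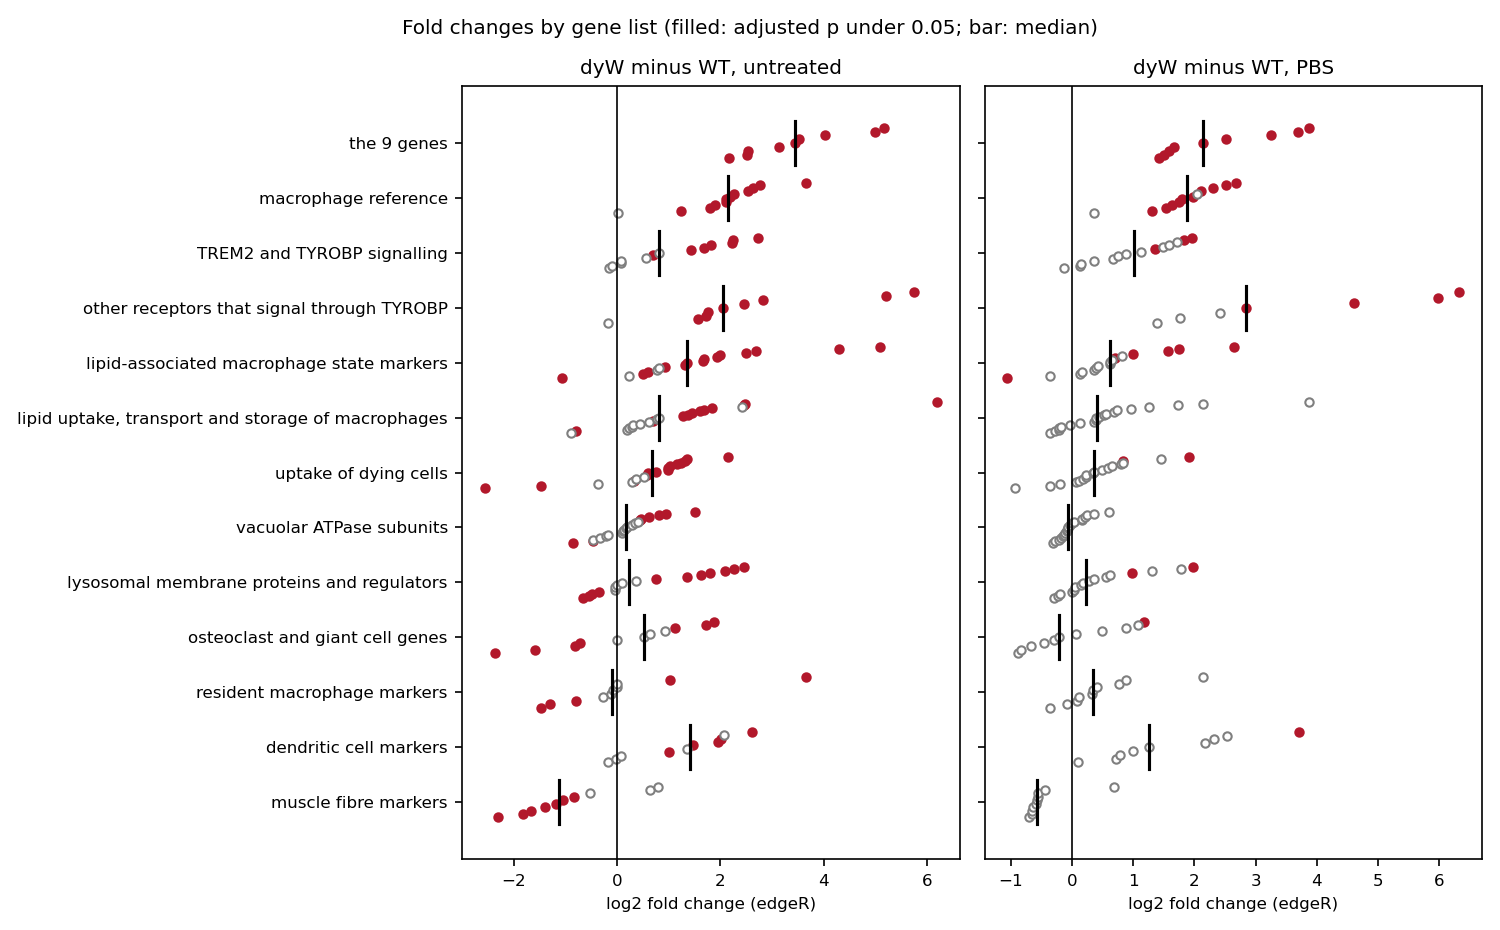
Fitted log2 fold changes (x axis) of the tested genes of 13 lists in untreated (left) and PBS (right) muscle; filled red points passed an edgeR adjusted p of 0.05, open points did not, and bars are medians. The bar of the 9 genes is at 3.44 untreated and at 2.14 under PBS, and that of the vacuolar ATPase subunits is at 0.18 and -0.07 (0.68 and 0.25 on log2(RPKM + 0.1)).

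The shares of all tested genes called higher, 24.7% untreated and 2.40% under PBS, stand beside the counts below. Of 13 tested genes around TREM2 and TYROBP signalling, 7 rose in untreated dyW muscle and none fell, with a median of 0.81. They included Lat2, an adaptor phosphorylated after TREM2 engagement (2.73, SE 0.31, edgeR adjusted p = 0.000399), Vav1, a guanine nucleotide exchange factor (2.23), and the phosphatases Ptpn6 (1.82) and Inpp5d (1.43). Under PBS 3 of 14 rose, among them Lat2 (1.97, edgeR adjusted p = 0.0103) and the adaptor Sh3bp2 (1.36, edgeR adjusted p = 0.0123), and the median was 1.00. Of other receptors that signal through TYROBP, 8 of 9 tested rose untreated and 4 of 7 under PBS. Cd300lb rose in both, by 2.46 (edgeR adjusted p = 0.000534) and 2.84 (edgeR adjusted p = 0.00588).

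Of 21 tested genes of macrophage lipid uptake, transport and storage, 10 rose and 1 fell in untreated dyW muscle, with a median of 0.82. Abcg1, a cholesterol exporter, rose by 2.47 (SE 0.15, edgeR adjusted p = 7.63e-05), Soat1, which esterifies cholesterol for storage, by 1.46, and Npc2, which carries cholesterol out of lysosomes, by 1.28. Under PBS none of 20 passed edgeR's test, and Soat1 was at 0.96 (edgeR adjusted p = 0.0558). In untreated dyW replicates 1 to 4 this lipid list summed to 2821, 2915, 1555 and 1132 RPKM. Adipocyte markers summed to 2435, 1676, 757 and 284 RPKM in the same libraries. The part of cells other than macrophages in this list was not tested. Other markers of the lipid-associated state had 13 of 17 higher and 1 lower untreated, and 5 of 16 higher and 1 lower under PBS. Lgals3, which encodes galectin-3, the target of TD139, went from 1.65 to 47.9 mean RPKM untreated (4.30, SE 0.20, edgeR adjusted p = 4.75e-05) and from 2.18 to 16.9 under PBS (2.65, SE 0.32, edgeR adjusted p = 0.00390).

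Among genes for the uptake of dying cells, 12 of 18 rose and 2 fell untreated, and 2 of 18 rose under PBS. Rac2, a GTPase of phagocytes, rose in both (2.14, edgeR adjusted p = 0.000585, and 1.91, edgeR adjusted p = 0.0131), as did Pros1, a bridging ligand of the TAM receptors (1.35, edgeR adjusted p = 0.000379, and 0.84, edgeR adjusted p = 0.0419). In the Dectin-1 pathway 7 of 10 rose and 1 fell untreated, with the adaptor Card9 at 2.22 (edgeR adjusted p = 0.000726), and 1 of 10 rose under PBS. Of a list around the beta-2 integrins (the beta-2 chain that pairs with CD11c, the other alpha chains, kindlin-3 and ICAM ligands), 4 of 5 tested rose untreated and 1 of 5 under PBS. Itgb2, the chain that pairs with CD11c, rose in both (1.98, edgeR adjusted p = 0.000547, untreated and 1.57, edgeR adjusted p = 0.0319, under PBS).

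Most subunits of the vacuolar ATPase did not follow Atp6v0d2. Of 20 tested, 6 rose and 2 fell untreated with a median of 0.18, and none of 20 passed edgeR's test under PBS, with a median of -0.07 that was 0.25 on log2(RPKM + 0.1). The smallest p was that of Tcirg1, the a3 subunit of osteoclasts and macrophages, at 1.498 untreated (SE 0.14, edgeR adjusted p = 0.000209). Over all genes tested, 25.1% were called lower untreated and 0.280% under PBS. Lysosomal membrane proteins and regulators had 7 of 16 higher and 4 lower untreated and 2 of 16 higher under PBS. Of the lower calls, 3 lysosomal genes and 1 ATPase subunit had the opposite sign on log2(RPKM + 0.1). Laptm5 (2.27 and 1.98) and Grn, which encodes progranulin (2.09 and 0.98), were higher in both. Osteoclast and giant cell genes had 3 of 11 higher untreated, close to the share over all genes, with 4 lower, and 1 of 11 higher under PBS. Ctsk was higher in both (1.71, edgeR adjusted p = 0.000642, and 1.18, edgeR adjusted p = 0.0235), and Mmp9 was lower untreated (-2.36, edgeR adjusted p = 0.00106).

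Markers of other cell types were counted beside the same shares, 24.7% higher and 25.1% lower untreated and 2.40% higher under PBS. Resident macrophage markers were near these shares, with 2 of 10 higher and 3 lower untreated (median -0.10, and 0.47 on log2(RPKM + 0.1)) and none called under PBS. Monocyte markers had 6 of 8 higher untreated and 2 of 8 under PBS, with Ccr2, the receptor for monocyte entry, at 2.12 (edgeR adjusted p = 0.000787) and 2.15 (edgeR adjusted p = 0.0157). Dendritic cell markers, relevant to Itgax and Clec7a, had 5 of 10 higher untreated and 1 of 9 under PBS, and their summed level was 2.13 to 2.73 RPKM in untreated WT and 4.61 to 6.71 RPKM in untreated dyW. Neutrophil markers had 4 of 4 tested higher untreated and 1 of 3 under PBS, with sums of 0.556 to 0.938 RPKM in WT and 2.84 to 17.2 RPKM in dyW and Ly6g at 0 in every untreated dyW library. Markers of T, B and NK cells had 2 of 7 higher untreated, near the share over all genes, and 1 of 4 under PBS.

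Outside the immune lists, adipocyte markers had 2 of 7 higher untreated and none of 7 under PBS, with sums of 94.3 to 383 RPKM in untreated WT and 284 to 2435 RPKM in untreated dyW. Adipocytes also express Apoe. Fibroblast markers had 3 of 9 higher and 1 lower untreated and 1 of 9 higher under PBS, and endothelial markers had 3 of 6 higher untreated and none under PBS. Schwann cell markers had 7 of 8 higher untreated and none called under PBS, where WT PBS replicate 1 stood apart. Muscle fibre markers had 7 of 10 lower untreated, such as Myh4 (-2.30, edgeR adjusted p = 0.00171), and none called under PBS. The part of these cell types in the values of the 9 genes was not tested.

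Over the 18 libraries, the gene whose centred log2 CPM lay nearest was sought for each of the 9 among 10859 genes. Lgals3 and Ctss recurred: Lgals3 was among the nearest 3 for Trem2, Clec7a and Atp6v0d2, and Ctss for Trem2, Mpeg1, Itgax and Atp6v0d2. The nearest to Tyrobp was C1qb, a subunit of complement C1q, with a root-mean-square difference of 0.2097 log2 units, followed by Rac2 (0.219) and C1qc (0.2267). For Trem2 the nearest was Cldn2 (0.5292), then Lgals3 (0.5398). Cd68 was nearest to Myo1f (0.2491), Apoe to Tspo (0.2783), Gpnmb to Lat2 (0.4168), Mpeg1 to Clec12a (0.4068), Itgax to Clec4n (0.3536), Clec7a to Cxcl16 (0.4157) and Atp6v0d2 to Lgals3 (0.5056). Among the 9 themselves, Tyrobp and Cd68 were the closest pair (0.2099) and Trem2 and Tyrobp the farthest (1.208), the last 2 encoding a receptor and its adaptor. This distance also grows with a difference in the size of the changes. Trem2 had the largest and Tyrobp the smallest untreated log2 fold change of the 9 (5.16 and 2.17).

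Untreated dyW replicate 3 was the highest of the 10 dyW libraries for 8 of the 9 genes, and Cd68 was the exception, highest in replicate 1. By RPKM, the 4 untreated dyW libraries filled the first 4 ranks for each of the 9, and dyW PBS replicate 1 was the fifth for all 9. How often such an order held over all genes was not counted. In the authors' deposited table for untreated dyW against WT, the log2 fold changes ran from 2.14 for Tyrobp to 5.12 for Trem2.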

How the data were processed

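Quadriceps RNA (1 ug, TRIzol) was made into Illumina Stranded mRNA libraries and read as 58 bp pairs on an Illumina NextSeq, per the labels. The genome build was mm10, per the submitters' processing notes; the aligner and counter are not given in the sources used here. The authors deposited total and unique exon read counts per gene and RPKM values for each library, per the file headers. Whether 1 count is a read or a pair is not stated. They also deposited tables of log2 fold changes and p-values for their own comparisons, used only where named.

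The edgeR package (4.0.16, R 4.3.3) was run on total counts (TMM, filterByExpr with minimum count 10 and total 15, quasi-likelihood F-test, Benjamini-Hochberg over all genes tested, adjusted p under 0.05, no fold cutoff). Separate fits covered the 2 untreated groups, the 4 PBS and TD139 groups, and, for the cohort difference, all 18 libraries. Intervals are 95% from the fit; log2 CPM values carry a prior count of 2. Alternatives were DESeq2 1.42.0, limma 3.58.1 on log2(RPKM + 0.1) and log2(RPKM + 1), RLE, no filter, unique reads, other sample sets, a sex term, and each library left out. The scripts were tested on simulated data.

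The 9 genes and all lists were chosen with earlier results of these data known. Besides the 9, up to 4 genes per list with the smallest p in the untreated comparison, and up to 2 under PBS, could be named; nearest genes are the 3 with the smallest root-mean-square difference. Lama2 and Lgals3 were named as checks, and Atp6v0d1 was chosen after its values were seen. Protein sequences were not analysed here. No 2 libraries of a group agreed within counting noise.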

Additional observations from a re-analysis of the deposited data

Results flagged for a closer look

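The genotype effect on Apoe differed between the cohorts, by a log2 fold change of 1.10 (untreated minus PBS, SE 0.26, edgeR adjusted p = 0.0462), tested in a model of all 18 libraries. The 4 untreated dyW mice were at 304 to 446 RPKM and the 3 dyW PBS mice at 104 to 171 RPKM, while the WT mice of the cohorts overlapped. That order of the dyW mice held for all 9 genes, and its share over all genes was not counted. Cohort differences of Atp6v0d2 (1.73), Gpnmb (1.54), Trem2 (1.45) and Clec7a (1.36) were larger than that of Apoe but were not called. Over 20 alternatives the adjusted p of Apoe ran from 0.00211 to 0.138. Cohort, age label and PBS treatment cannot be told apart here. Among the untreated dyW mice, the 1 group of 4 mice, none of the 9 genes had a single library far from the others by Dixon's criterion.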

How the results depend on the processing

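All 135 alternative values of the untreated genotype effects kept their direction and call. Under PBS all 135 kept their direction and 12 lost the call, and the number of the 9 genes called ran from 5 to 9 when 1 library was left out. For the genotype effect under TD139 the number called was 4, and it was 7 with DESeq2, 7 with limma on log2(RPKM + 0.1) and 1 whichever library was left out. For the cohort difference it was 1, and it was 3 with DESeq2, 0 with limma on log2(RPKM + 0.1), 3 with limma on log2(RPKM + 1) and 0 to 2 with 1 library left out. The 3 TD139 comparisons called 0 of the 9 in every alternative that was run. Over all genes, calls numbered 411 under PBS (864 with DESeq2, 952 and 814 with limma at the pseudocounts 0.1 and 1), 160 for genotype under TD139 (740, 552 and 296) and 272 for the cohort difference (1189, 75 and 111). Uncalled values changed sign as follows. With limma on log2(RPKM + 0.1), the TD139 effect in dyW was 0.077 for Trem2 and -0.014 for Itgax; with limma on log2(RPKM + 1) it was -0.013 for Itgax, and the TD139 effect in WT was -0.00517 for Gpnmb. With 1 library left out, the TD139 effect in dyW ran from -0.46 to 0.73 (Trem2), -0.39 to 0.28 (Tyrobp), -0.31 to 0.36 (Cd68), -0.24 to 0.35 (Itgax) and -0.49 to 0.026 (Atp6v0d2). That in WT ran from -0.13 to 0.31 (Gpnmb) and -0.34 to 0.25 (Apoe). The difference of the TD139 effects ran from -0.91 to 0.24 (Trem2), -0.63 to 0.035 (Tyrobp), -0.41 to 0.18 (Apoe), -1.05 to 0.043 (Mpeg1) and -0.38 to 0.21 (Clec7a). The cohort difference of Mpeg1 ran from -0.015 to 0.41. Against Csf1r in place of the 12 reference genes, the PBS values of Apoe, Cd68, Gpnmb and Tyrobp changed sign, to 0.15, 0.33, 0.34 and 0.18. Against Ptprc they kept their sign, at -0.36, -0.18, -0.17 and -0.33. The cause was not tested for any of these. No paired analysis was possible because each library is a different mouse with its own number and the labels pair none across groups. Groups of 2 to 4 mice, and under 20 reads of Trem2 and Atp6v0d2 in each WT library, limit the precision. Itgax, with 7 to 26 reads per WT library, and Clec7a, with 13 to 35, were also low.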

Other observations

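Spp1, which encodes osteopontin and is another gene of lipid-laden macrophages, was not separated by genotype in the PBS groups, where all 9 genes were. It was at 1.04, 0.304 and 0.285 RPKM in untreated WT mice and at 34.9, 23.1, 34.7 and 12.3 RPKM in untreated dyW mice (log2 fold change 5.09, SE 0.49, edgeR adjusted p = 0.000279). Under PBS, WT replicates 1 and 2 were at 5.02 and 5.22 RPKM and replicate 3 at 0.262 RPKM, against 10.6, 1.95 and 2.14 RPKM in dyW mice. The groups overlapped, and the log2 fold change was 0.13 (95% interval -1.65 to 1.90, edgeR adjusted p = 0.965). The WT mice given TD139 were at 0.433 and 0.274 RPKM and the dyW mice at 3.92, 4.72 and 11.9 RPKM, so there the genotypes were apart (log2 fold change 3.90, SE 1.07, edgeR adjusted p = 0.128). The difference between the TD139 effects of the 2 genotypes was 3.78 (95% interval 0.85 to 6.70, unadjusted p = 0.0176, edgeR adjusted p = 1). Spp1 was singled out after its values were seen.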
